A study of Mus musculus with 78 samples.

Results

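The genes described here are the cytochrome P450s of the Cyp1, Cyp2 and Cyp3 families measured in mouse liver, leaving out the Cyp2c genes. They were chosen by name, as every gene of the array's annotation whose single symbol starts with Cyp1, Cyp2 or Cyp3. Cyp2c genes and named pseudogenes were left out. The rule itself uses no measured value, but it was set with earlier results of these data known. This gave 39 genes of 19938 with a symbol, each with 1 probe set. Many lie in gene clusters. Chromosome 7 holds 13 of the members, chromosome 15 holds 9, chromosome 5 holds 7 and chromosome 4 holds 6. The other 4 are on chromosomes 3, 9 and 17. The study measured liver RNA of 78 female mice on Affymetrix expression arrays, 1 array per mouse, around the loss of Npc1, a late endosomal and lysosomal cholesterol transporter whose deficiency causes Niemann-Pick disease type C1. The age series held 48 mice of the line BALB/cNctr-Npc1m1N/J, Npc1-/- or Npc1+/+ littermates from heterozygous matings, killed every 2 weeks from 1 to 11 weeks after birth, with 4 mice per age and genotype. The labels call the mutants pre-symptomatic at 1 and 3 weeks and post-symptomatic from 5 weeks. The other 30 mice were Npc1+/+ BALB/cJ females of 12 weeks in 6 groups of 5. These groups were untreated, fasted overnight, injected with a control antisense oligo or with an Npc1 antisense oligo from 8 weeks of age for 4 weeks, or given either oligo together with NAC (N-acetyl-cysteine, an antioxidant). The mutants carry the Npc1 defect in every cell from conception on, whereas an injected oligo lowers it in the adult and in the cells that take it up.

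P450s are haem enzymes of the endoplasmic reticulum that insert 1 oxygen atom into their substrate, with electrons passed on by P450 oxidoreductase or cytochrome b5. Members of families Cyp1 to Cyp3 oxidise drugs, toxins, steroids and fatty acids, and hepatocytes hold most of them. Their transcription is known to depend on ligand-activated receptors, namely the dioxin receptor (Ahr) for Cyp1 genes, the constitutive androstane receptor (Nr1i3) for Cyp2b10 and the pregnane X receptor (Nr1i2) for Cyp3a11. Several mouse members differ by sex through the pattern of growth hormone release, and several change with age after birth. Cyp2b9, Cyp2b13, Cyp3a16 and Cyp3a44 are known as genes with higher adult expression in female liver.

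Values are the deposited log2 expression levels, so that a difference of 1 is a 2-fold difference, and levels of different probe sets are not compared. A change is the difference of group means, with its standard error (SE) and a p-value from limma adjusted by the Benjamini-Hochberg method over all genes tested, and "higher", "lower", "rose" and "fell" are used below an adjusted p of 0.05. Genes above 5.54, the median of all deposited values, on at least 4 arrays were tested. Of the 39 members, 25 passed in the age series, where 12638 genes were tested, and 24 passed in the 12-week set, where 11900 were. The member that passed in the age series alone was Cyp2d34.

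These families hold some near-identical neighbours. Shown here are 2 pairs, because their upstream windows are close in sequence and their levels are followed by age below. The windows are the 250 bases before the annotated transcript start, 5′ to 3′ on the gene's strand, from RefSeq on GRCm38.p6. Capitals mark bases that the aligned partner does not share.
Cyp2b9, chr7:26173159-26173408, plus strand: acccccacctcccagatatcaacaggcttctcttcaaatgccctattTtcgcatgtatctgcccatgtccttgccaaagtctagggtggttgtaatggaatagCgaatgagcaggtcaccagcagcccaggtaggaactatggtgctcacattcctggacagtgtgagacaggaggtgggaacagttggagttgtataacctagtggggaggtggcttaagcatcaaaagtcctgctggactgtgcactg
Cyp2b13, chr7:26061245-26061494, plus strand: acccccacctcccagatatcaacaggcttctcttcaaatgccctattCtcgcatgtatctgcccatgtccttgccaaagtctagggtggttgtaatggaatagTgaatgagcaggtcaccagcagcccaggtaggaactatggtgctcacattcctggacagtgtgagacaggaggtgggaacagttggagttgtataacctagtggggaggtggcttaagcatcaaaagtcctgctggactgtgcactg
Cyp3a16, chr5:145469724-145469973, minus strand: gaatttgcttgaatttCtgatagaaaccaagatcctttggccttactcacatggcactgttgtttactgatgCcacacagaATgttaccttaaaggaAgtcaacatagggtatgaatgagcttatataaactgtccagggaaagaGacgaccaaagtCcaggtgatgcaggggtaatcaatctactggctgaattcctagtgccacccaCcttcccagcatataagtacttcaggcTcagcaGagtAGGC
Cyp3a44, chr5:145805875-145806124, minus strand: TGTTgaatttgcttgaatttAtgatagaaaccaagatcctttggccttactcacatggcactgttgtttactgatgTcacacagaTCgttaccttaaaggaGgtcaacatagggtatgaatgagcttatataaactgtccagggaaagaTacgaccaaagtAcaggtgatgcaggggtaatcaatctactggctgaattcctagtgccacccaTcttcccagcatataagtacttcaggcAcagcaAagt
The windows of Cyp2b9 and Cyp2b13 were identical at 248 of 250 bases. The 2 substitutions were T48C and C104T, with the Cyp2b9 base first, the position counted from 1 at the window's 5′ end and the Cyp2b13 base last. Those of Cyp3a16 and Cyp3a44 shared 236 bases, differed by 10 substitutions and had 8 bases facing a gap, or 92.9% identity over 254 aligned columns. By comparison, the windows of Cyp2b10 and Cyp2b9 were 70.0% identical and those of Cyp3a11 and Cyp3a16 76.6%. Windows were found for 33 of the 39 members. The letters TATAAA, searched on both strands, occurred in 14 of these 33 windows (42.4%), among them those of Cyp3a16 and Cyp3a44 and neither of the Cyp2b windows shown, against 12.4% of 32851 windows of all genes. GCGTG, the core of the dioxin response element, occurred in 7 (21.2%) against 28.2% of all windows. TTCNNNGAA, the STAT5-type motif, occurred in 2 (6.06%) against 7.02%. The transcripts of such pairs are also alike, so that part of a probe set's signal may come from the paralogue.

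Both Cyp2b genes of the pair rose with age in Npc1+/+ mice. Cyp2b13 rose from 7.46, 7.78, 7.76 and 7.70 in the 4 mice of 1 week to 9.33, 9.37, 9.15 and 9.29 at 3 weeks, 10.68, 11.14, 10.97 and 10.23 at 5 weeks and 11.52, 11.28, 11.14 and 11.30 at 11 weeks. Every mouse of 3 weeks lay above every mouse of 1 week, and every mouse of 5 weeks above those of 3 weeks. The change from 1 to 11 weeks was 3.63 (SE 0.29, adjusted p = 3.9e-14). Cyp2b9 rose over the same weeks from 10.63, 11.04, 11.06 and 11.07 to 12.26, 12.19, 12.04 and 12.13, a change of 1.20 (SE 0.16, adjusted p = 3.61e-08).

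In the Cyp3a pair, Cyp3a16 fell with age in Npc1+/+ mice. Cyp3a16, a form known from foetal and newborn liver, stood at 10.16, 10.48, 10.48 and 10.53 in Npc1+/+ mice of 1 week and at 8.88, 9.23, 9.13 and 8.83 at 3 weeks. At 5 weeks the mice had spread out to 6.89, 8.06, 6.42 and 5.15, and at 9 weeks to 5.94, 9.61, 8.11 and 5.03. At 11 weeks they stood at 5.48, 5.21, 5.27 and 5.01, all under the median of all deposited values, so that the change from 1 to 11 weeks of -5.17 (SE 0.68, adjusted p = 2.34e-08) may understate the fall. Cyp3a44 had no called change over these weeks, with 10.27, 10.09, 9.98 and 10.00 at 1 week and 9.97, 9.93, 10.51 and 9.80 at 11 weeks, a change of -0.03 (SE 0.24, adjusted p = 0.928).

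**Figure D1:**
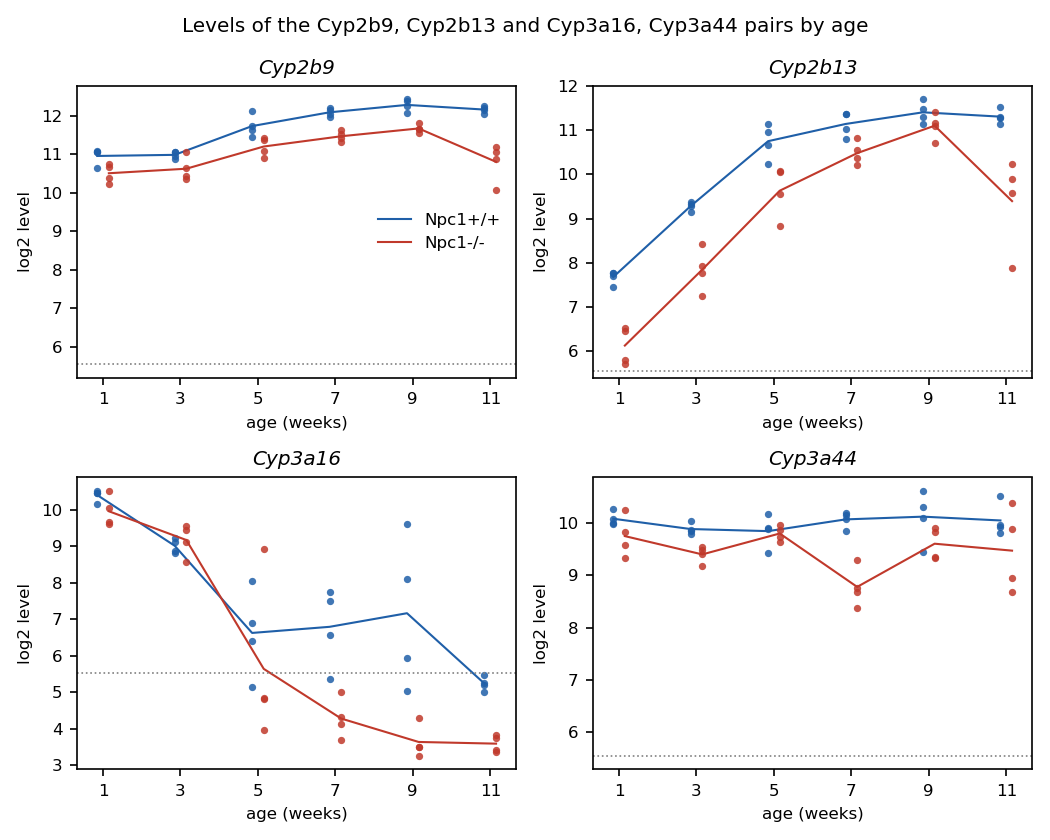
Log2 expression level against age in weeks for Cyp2b9, Cyp2b13, Cyp3a16 and Cyp3a44; points are mice, lines join the means of 4 mice, blue is Npc1+/+, red is Npc1-/-, and the dotted line is the median of all deposited values (5.54). Cyp2b13 climbed in both genotypes while Cyp3a16 fell, and the red points of Cyp3a16 lie under the dotted line in all 12 mutants of 7, 9 and 11 weeks.

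The 39 members fell into a measured and an unmeasured part. Of the tested ones, 21 lay above 5.54 on all 78 arrays. The other 14 members (Cyp1a1, Cyp1b1, Cyp2b19, Cyp2b23, Cyp2d11, Cyp2d12, Cyp2g1, Cyp2j11, Cyp2j12, Cyp2j13, Cyp2s1, Cyp2t4, Cyp2w1 and Cyp3a57) ranged from 3.05 to 5.80, and 11 of them were above 5.54 on no array. Cyp1a1, a dioxin receptor target that is low in liver without inducer, reached 4.50, 4.73, 4.16 and 5.80 in the 4 mutants of 11 weeks, where its highest value of 5.80 belonged to mouse 4. Cyp2a5 shares its probe set with Cyp2a4 and was given no value. Cyp2d13 is annotated in RefSeq as a transcribed pseudogene, and its probe set was kept under the array's symbol.

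Whole-tissue checks came out as follows. Npc1 was lower in the mutants at all 6 ages, with changes from -1.11 at 3 weeks to -1.72 at 9 weeks, with 7.97 to 9.20 in mutants and 8.80 to 10.5 in littermates over all ages. Under the Npc1 oligo it stood at 6.96 to 7.55 against 9.98 to 10.4 under the control oligo. Hepatocyte markers (Alb, Apoa1, Ttr, Tat and Fgb) had a mean level of 12.8 to 13.4 on all 78 arrays. The 8 macrophage markers averaged 10.0 to 10.2 in mutants of 11 weeks and 6.76 to 6.87 in their littermates. The mean of 9 exocrine pancreas markers was 8.75 and 8.76 in Npc1+/+ mice 1 and 2 of 3 weeks and at most 6.67 elsewhere, and that of 8 muscle markers was 9.38 in 1 mutant of 1 week (mouse 3) and at most 7.08 elsewhere. In addition, 2 of the 4 Npc1+/+ mice of 1 week (mice 3 and 4) carry sample numbers far from those of the rest of the age series. The counts for comparisons that use these arrays are given with and without them. In whole liver, fewer cells of a type and less RNA per cell cannot be told apart.

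Most members rose around weaning in Npc1+/+ mice. Between 1 and 3 weeks 18 of the 25 tested members changed, all upwards, where 15.4% of all genes rose, and 16 were called without the 4 Npc1+/+ arrays named above. The other 2 were Cyp2b10 (1.26, adjusted p = 0.203) and Cyp2d34 (0.42, adjusted p = 0.0542). Cyp2f2, a periportal enzyme that activates naphthalene, went from 8.46, 8.54, 9.56 and 9.29 at 1 week to a 3-week level higher by 2.30 (SE 0.15, adjusted p = 1.23e-16). At 1 week mice 3 and 4 lay about 1 unit above mice 1 and 2, and these are the 2 mice with the distant sample numbers. Cyp2d13 rose by 2.63 (SE 0.12, adjusted p = 2.76e-21) from a tight 1-week level of 8.33, 8.43, 8.35 and 8.34. Cyp1a2, a pericentral arylamine and caffeine oxidase, rose by 1.63 (SE 0.16, adjusted p = 3.64e-11), from 10.28, 10.59, 11.04 and 10.30 to 12.05, 11.99, 12.28 and 12.41. Cyp2b13 (1.61), Cyp2b10 (1.54), Cyp3a13 (1.25), Cyp2a22 (1.24) and Cyp2a12 (1.17) followed.

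After weaning few members moved. From 3 to 5 weeks Cyp2b13 (1.47, adjusted p = 0.000658), Cyp2b9 (0.75, adjusted p = 0.00177) and Cyp2f2 (0.75, adjusted p = 0.00079) rose and Cyp3a16 fell (-2.39, adjusted p = 0.0226), where 6.55% of all genes changed. The call for Cyp3a16 was lost in 4 of the 8 fits that left out 1 mouse, with adjusted p between 0.0564 and 0.142, and without both mice with pancreas signal (adjusted p = 0.114), which left 3 members called. From 5 to 11 weeks 0 of 25 members passed in limma, where 0.19% of all genes did, and 5 had an unadjusted p under 0.05. Over the whole span from 1 to 11 weeks, 19 members rose and Cyp3a16 fell in Npc1+/+ mice, where 22.3% of all genes rose and 22.5% fell, and 18 members were called without the 2 littermates with distant sample numbers. In Npc1-/- mice 14 members rose and 2 fell over the same span, where 20.9% of all genes rose and 19.6% fell, and 14 members were called without the mutant with muscle signal. By limma's F test over the 6 ages, 20 members differed between ages in littermates (53.3% of all genes did) and 23 in mutants (55.6%). Without the 4 Npc1+/+ arrays 18 differed in littermates, and without the mutant with muscle signal 23 did in mutants. The second gene that fell in the mutants was Cyp2j5, an arachidonic acid epoxygenase, which changed by -0.62 (SE 0.11, adjusted p = 5.54e-06) there and rose by 0.93 (SE 0.11, adjusted p = 9.59e-10) in littermates.

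**Figure D2:**
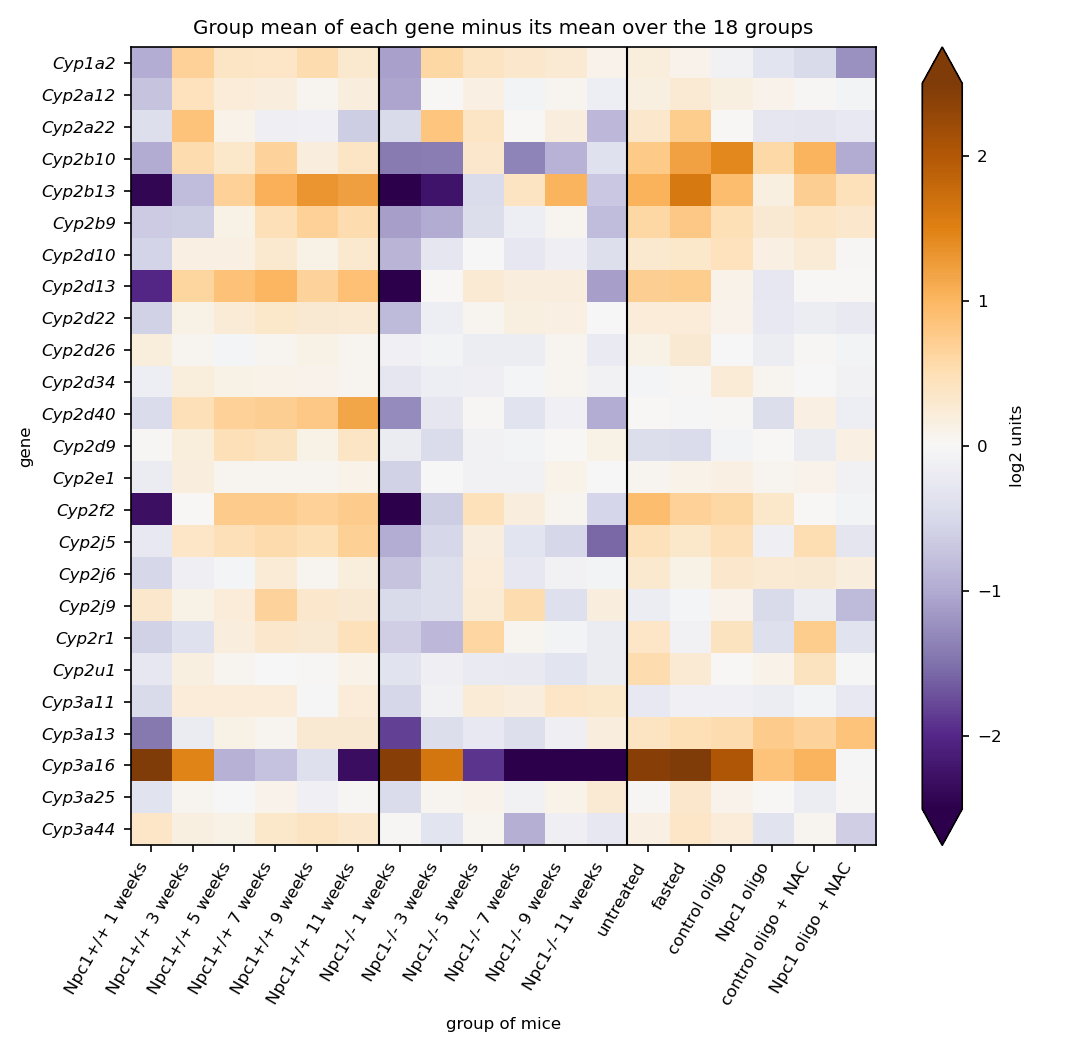
Heat map of the 25 tested members (rows) in the 18 groups (columns); the colour is the group's mean log2 level minus the gene's mean over all groups, and the scale ends at -2.5 and 2.5. Most rows are low in the groups of 1 week, whereas Cyp3a16 is high there and low in the mutants of 7 to 11 weeks.

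In Npc1-/- livers some of these P450 transcripts were lower than in littermates at every age. Of 25 tested members, those called lower numbered 8 at 1 week, 11 at 3, 5 at 5, 14 at 7, 8 at 9 and 14 at 11 weeks. The share of all tested genes called lower was 2.78%, 6.84%, 2.88%, 11%, 15.5% and 20.5% at these ages. The members' median change was -0.32, -0.36, -0.16, -0.47, -0.30 and -0.30, whereas the median over all genes stayed between -0.017 and 0.012. Averaged over the 6 ages, 21 of 25 members were lower, among them all 3 tested Cyp2b genes, all 7 Cyp2d genes and all 3 Cyp2j genes, where 26.6% of all genes were lower. Without the 5 arrays named above 20 were, and the other was Cyp2r1 (-0.17, adjusted p = 0.148). The only members called higher at any age were Cyp2j6 at 5 weeks and Cyp3a11 at 9 weeks, where 9.69% and 17.6% of all genes were higher.

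These counts varied somewhat with single arrays and with scaling. At 1 week 6 members were called without the mutant with muscle signal and 6 without the 2 littermates with distant sample numbers, and at 3 weeks 9 did without both mice with pancreas signal. With arrays brought to one distribution (quantile normalization), 10 members were lower at 11 weeks and Cyp3a11 and Cyp3a25 came out higher, at 0.35 and 0.34. Centring each array on its median moved the median change of all genes at 11 weeks to -0.10, and the split of all called genes from 2378 higher and 2595 lower to 1850 and 3750, with 17 members called.

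By gene, 20 of the 25 members (80%) were lower at 1 age or more and 12 (48%) at 3 or more, where 29.8% and 8.37% of the 12638 genes tested were. Cyp2d13 and Cyp2d40 were lower at all 6 ages, and Cyp2d10 and Cyp2j5 at 5. Cyp1a2, Cyp2a22, Cyp2u1, Cyp3a11 and Cyp3a25 were called lower at none. The genotype difference itself varied between ages for 10 members, where 27.7% of all genes did, and for 8 members without the 5 arrays.

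**Figure D3:**
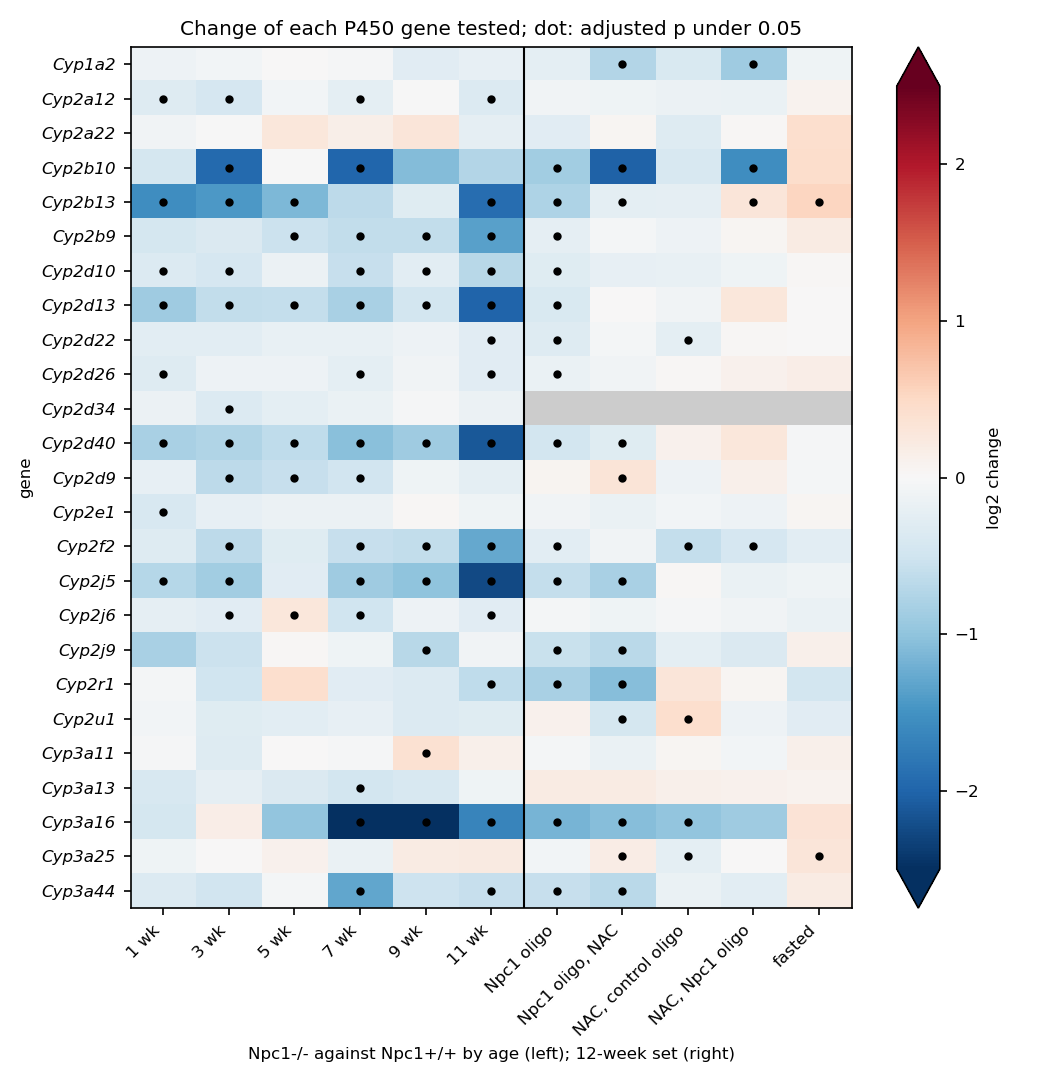
Heat map of the log2 change of each tested member (rows) for mutant against littermate at the 6 ages, the oligo to Npc1 against the control oligo (first without NAC), the effect of NAC beside each oligo, and fasted against untreated (columns); dots mark an adjusted p under 0.05, the scale ends at -2.5 and 2.5, and grey is not tested. Blue cells with dots fill the rows of Cyp2d13 and Cyp2d40 at all 6 ages, and Cyp2j5 is dotted in every genotype column but 5 weeks.

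Among the epoxygenases Cyp2j5 differed most. At 1 week the mutants stood at 10.51, 10.82, 10.23 and 10.68 and the littermates at 11.11, 11.26, 11.44 and 11.29, a change of -0.71 (SE 0.11, adjusted p = 1.21e-05). At 5 weeks the levels drew close, with 11.66, 11.82, 11.54 and 11.80 against 12.04, 12.12, 11.90 and 11.92, and the difference of -0.29 (SE 0.11, adjusted p = 0.069) did not pass. By 11 weeks all 4 mutants, at 10.15, 10.04, 10.03 and 9.53, lay below all littermates, at 12.14, 12.25, 12.15 and 12.29. That change was -2.27 (SE 0.11, adjusted p = 7.61e-22), and its variation between ages had an adjusted p of 8.59e-13. Of its relatives, Cyp2j6 was lower at 3 (-0.28), 7 (-0.50) and 11 weeks (-0.27) and higher at 5 weeks (0.29, adjusted p = 0.025). Cyp2j9 was lower at 9 weeks (-0.70, adjusted p = 0.0392). The Cyp2j6 calls at 3 and 5 weeks were each lost in 4 of the 8 fits that left out 1 mouse, and the Cyp2j9 call in 6. The Cyp2j6 call at 11 weeks was lost in 2 of the 8, and under quantile normalization that change was -0.16 (adjusted p = 0.0939).

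The Cyp2d genes are the mouse relatives of a human drug-oxidising enzyme, and Cyp2d40, Cyp2d13 and Cyp2d10 were lower at the most ages. Cyp2d40 stood at 6.71, 6.41, 6.65 and 6.64 in mutants of 1 week against 7.69, 7.49, 7.12 and 7.38 in littermates, and at 7.13, 7.03, 6.81 and 6.70 against 9.07, 8.91, 9.16 and 9.00 at 11 weeks. The groups did not overlap at either age, and the changes were -0.82 (SE 0.13, adjusted p = 4.58e-05) and -2.12 (SE 0.13, adjusted p = 1.39e-17). Cyp2d13 changed by -0.89 at 1 week, by -0.47 at 9 weeks and by -2.01 at 11 weeks, the last from 11.23, 11.35, 11.16 and 11.31 in littermates to 9.56, 9.59, 8.91 and 8.97 in mutants. The difference varied between ages for both genes, and was widest at 11 weeks, with adjusted p of 1.42e-07 for Cyp2d40 and 1.08e-08 for Cyp2d13 in the test of variation between ages. Cyp2d10 had smaller changes, from -0.27 to -0.69 where it passed. Its 1-week call was lost without mutant 3, which had muscle signal (-0.23, adjusted p = 0.122). Its 9-week call was lost in 2 of the 8 fits that left out 1 mouse. Cyp2d9, a testosterone hydroxylase with higher expression in males, was lower at 3 (-0.66, adjusted p = 0.000203), 5 (-0.57, adjusted p = 0.00129) and 7 weeks (-0.48, adjusted p = 0.00339) and at no other age. Cyp2d26 passed at 1 (-0.32), 7 (-0.24) and 11 weeks (-0.28), Cyp2d22 at 11 weeks (-0.28) and Cyp2d34 at 3 weeks (-0.35). Without mutant 4 the change of Cyp2d26 at 11 weeks was -0.17. The calls for Cyp2d22 and Cyp2d34 were lost in 3 and 5 of the 8 fits that left out 1 mouse. Under quantile normalization Cyp2d26 passed at none of its 3 ages, with -0.16 (adjusted p = 0.204) at 1 week, -0.13 (0.191) at 7 weeks and -0.15 (0.100) at 11 weeks. Cyp2d22 then stood at -0.03 (adjusted p = 0.849) at 11 weeks.

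The female-predominant Cyp2b pair was lower in mutants, each gene at 4 ages. Cyp2b13 was already lower at 1 week, with 6.53, 5.70, 5.80 and 6.46 in mutants and no overlap with the littermates given above, a change of -1.55 (SE 0.29, adjusted p = 0.000396). It remained lower at 3 weeks (-1.44, adjusted p = 0.000374) and 5 weeks (-1.12, adjusted p = 0.0058). At 7 and 9 weeks the changes were -0.66 and -0.30 and did not pass, and at 11 weeks the mutants stood at 10.23, 9.89, 9.58 and 7.89, a change of -1.91 (SE 0.29, adjusted p = 5.95e-07). Mutant 4 was the lowest of these, and without it the 11-week change was -1.41 and still passed. The 5-week call was lost without mutant 3 of that age (adjusted p = 0.0583), and that of Cyp2b9, given next, in 3 of the 8 fits that left out 1 mouse. Cyp2b9 did not pass at 1 or 3 weeks (-0.45 and -0.36) and was lower at 5 (-0.53, adjusted p = 0.021), 7 (-0.62, adjusted p = 0.00269) and 9 weeks (-0.61, adjusted p = 0.00266). At 11 weeks it stood at 11.19, 11.05, 10.88 and 10.07 in mutants against 12.26, 12.19, 12.04 and 12.13 in littermates, a change of -1.36 (SE 0.16, adjusted p = 2.34e-09).

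Cyp2b10, the main target of the constitutive androstane receptor, was lower at 3 and 7 weeks. At 3 weeks it stood at 8.28, 7.17, 7.91 and 8.18 in mutants against 10.22, 10.18, 9.63 and 9.31 in littermates, a change of -1.95 (SE 0.47, adjusted p = 0.00303). Both littermates with pancreas signal were the highest, and without them the change was -1.58 with an adjusted p of 0.0913. At 5 weeks the groups overlapped, with 8.57, 10.10, 10.34 and 9.44 in mutants against 10.46, 9.28, 9.38 and 9.37 and a change of -0.01. At 7 weeks every mutant, at 7.90, 7.95, 7.82 and 8.17, lay below every littermate, at 9.05, 9.98, 10.35 and 10.41, a change of -1.99 (SE 0.47, adjusted p = 0.00118). At 11 weeks 3 mutants were below all littermates and mutant 4 above all of them, at 7.79, 7.71, 8.78 and 11.44 against 9.30, 9.13, 10.49 and 9.73, and the change of -0.73 (SE 0.47, adjusted p = 0.233) did not pass. Mutant 4 was also the highest of its group for Cyp1a1 and the lowest for Cyp2b13 and Cyp2b9.

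**Figure D4:**
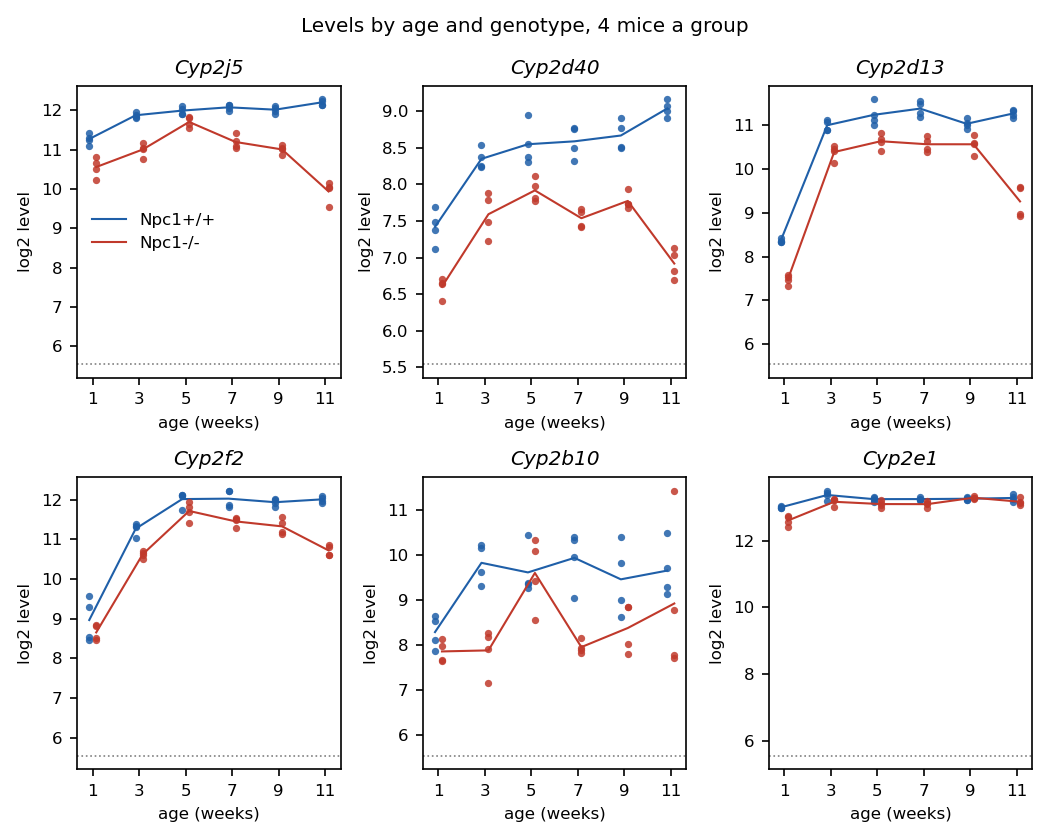
Log2 level against age in weeks for Cyp2j5, Cyp2d40, Cyp2d13, Cyp2f2, Cyp2b10 and Cyp2e1; points are mice, lines join the means of 4, blue is Npc1+/+ and red is Npc1-/-. Cyp2j5, Cyp2d40, Cyp2d13 and Cyp2f2 have no overlap between genotypes at 11 weeks, while Cyp2b10 has 1 mutant at 11.44 above all littermates and Cyp2e1 is called lower at 1 week alone.

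Enzymes with a known position in the liver lobule differed at separate ages. Periportal Cyp2f2 was lower at 3 (-0.65, adjusted p = 0.00186), 7 (-0.57, adjusted p = 0.00293) and 9 weeks (-0.61, adjusted p = 0.00132). At 11 weeks it stood at 10.86, 10.80, 10.61 and 10.61 in mutants against 11.97, 12.10, 11.90 and 12.04 in littermates, a change of -1.29 (SE 0.15, adjusted p = 1.42e-09). Pericentral Cyp2e1, the ethanol-inducible form, was lower at 1 week, at 12.58, 12.71, 12.41 and 12.75 against 12.98, 12.99, 13.01 and 13.06, a change of -0.40 (SE 0.07, adjusted p = 0.000334), and changed by -0.11 at 11 weeks, which did not pass. Pericentral Cyp1a2 passed at no age, with changes from -0.28 to 0.02. Of 4 periportal markers, 1 was higher and 1 lower at both 3 and 5 weeks. At 7 weeks 1 was higher and 2 lower, and 1 was higher at 9 and at 11 weeks. Over all 12638 genes, 2.78%, 6.84%, 2.88%, 11%, 15.5% and 20.5% were lower at the 6 ages. Those higher numbered 368, 1125, 1224, 1806, 2225 and 2378. Of 7 pericentral markers, 1 was higher and 2 lower at 1 week, 3 were higher and 1 lower at both 3 and 9 weeks, 1 was higher and 1 lower at 7 weeks, and 1 was lower at 11 weeks. Their part in the Cyp2f2 and Cyp2e1 changes was not tested. Cyp2a12, a bile acid hydroxylase, was lower at 1 (-0.32), 3 (-0.43), 7 (-0.25) and 11 weeks (-0.34). Its calls at 1 and 7 weeks were lost in 4 and 6 of the 8 fits that left out 1 mouse. Under quantile normalization it passed at 3 weeks alone, and its changes were -0.23 (adjusted p = 0.0974) at 1 week, -0.08 (0.574) at 7 weeks and -0.09 (0.451) at 11 weeks.

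Cyp3a16 spread widely between mice of one group. In mutants of 5 weeks 3 of 4 mice were below 5.54, at 3.97, 4.83, 8.94 and 4.84, and the difference from littermates of -0.98 (SE 0.68, adjusted p = 0.408) did not pass. At 7 weeks the mutants stood at 5.00, 4.12, 4.32 and 3.68 against 7.74, 7.51, 6.57 and 5.37, a change of -2.51 (SE 0.68, adjusted p = 0.00401). At 9 weeks they stood at 3.51, 3.26, 4.31 and 3.49 against the littermates given above, a change of -3.53 (SE 0.68, adjusted p = 5.81e-05). All 12 mutants of 7 to 11 weeks were below 5.54, and at each of these ages every mutant was below every littermate. With the mutants in that range, the changes at 7 and 9 weeks may understate the difference. At 11 weeks both genotypes were below 5.54, and the change of -1.65 (SE 0.68, adjusted p = 0.0493) was lost when any of the 8 mice was left out, with adjusted p between 0.0633 and 0.098.

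Its neighbour Cyp3a44 was lower in mutants at 7 weeks, at 9.29, 8.77, 8.37 and 8.69 against 10.21, 10.16, 10.07 and 9.86, a change of -1.29 (SE 0.24, adjusted p = 3.68e-05). At 11 weeks 2 mutants were low and 2 lay among the littermates, at 8.68, 8.95, 9.89 and 10.39 against 9.97, 9.93, 10.51 and 9.80. That change of -0.58 (SE 0.24, adjusted p = 0.0499) was -0.31 without mutant 1 (adjusted p = 0.326) and -0.88 without mutant 4, and the call was lost in 5 of the 8 fits that left out 1 mouse. Cyp3a11, the main adult form, was higher at 9 weeks, at 11.68, 11.55, 11.69 and 11.53 against 11.13, 11.20, 11.29 and 11.28, a change of 0.39 (SE 0.13, adjusted p = 0.0207). It did not pass when arrays were centred on their medians (adjusted p = 0.0707) and was lost in 3 of the 8 fits that left out 1 mouse. Cyp3a13 was lower at 7 weeks (-0.47, adjusted p = 0.0417), a call lost in 6 of the 8 such fits, and Cyp3a25 passed at no age. Among the single-gene groups, the vitamin D hydroxylase Cyp2r1 was lower at 11 weeks (-0.63, adjusted p = 0.0128), a call lost without mutant 4 (-0.47, adjusted p = 0.0878).

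Under the Npc1 oligo, 14 of 24 tested members were lower than under the control oligo, and the median change was -0.27, where 7.88% of all genes were lower and their median was 0.015. All 14 were among the 20 members tested in both sets and lower on average in the mutants, which is 100% of the 14 and 70% of the 20. These 20 make up 83.3% of the 24 members, and over all genes tested in both sets 67.2% of those lower under the oligo were lower on average in the mutants, or 18.9% of the latter. All 3 tested Cyp2b genes were among them. Cyp2b10 stood at 9.96, 9.93, 9.59, 9.96 and 9.84 under the Npc1 oligo against 10.78, 10.68, 10.62, 10.31 and 11.24 under the control oligo, a change of -0.87 (SE 0.14, adjusted p = 5.02e-05). The control oligo mice were themselves higher than untreated mice for Cyp2b10, by 0.67, as given below. Cyp2b13 stood at 10.28, 10.32, 10.22, 10.27 and 10.14 against 11.21, 10.83, 11.26, 10.81 and 10.95, a change of -0.76 (SE 0.09, adjusted p = 4.22e-07). For neither gene did the groups overlap. Cyp2b9 changed by -0.22 (SE 0.07, adjusted p = 0.0187), a call lost in 2 of the 10 fits that left out 1 mouse.

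The widest change under the oligo was that of Cyp3a16, at 9.21, 8.81, 7.97, 8.31 and 7.73 against 9.28, 9.64, 9.93, 9.74 and 9.24, or -1.16 (SE 0.29, adjusted p = 0.00403). Its groups did not overlap. Cyp3a44 was lower too, at 9.64, 9.59, 9.40, 9.26 and 9.05 against 9.94, 9.95, 10.02, 9.87 and 10.02, or -0.57 (SE 0.11, adjusted p = 0.000355). Cyp2r1 went from 6.11, 6.16, 6.61, 6.43 and 6.20 to 5.64, 5.49, 5.79, 5.23 and 5.33, a change of -0.80 (SE 0.16, adjusted p = 0.000408) that ended near the median of all deposited values. Cyp2j5 changed by -0.60 (SE 0.09, adjusted p = 1.28e-05), at 11.32, 11.61, 11.42, 11.40 and 11.17 against 12.05, 11.92, 11.98, 12.02 and 11.98, and Cyp2j9 by -0.55. Of the Cyp2d genes, Cyp2d40 (-0.46), Cyp2d13 (-0.38), Cyp2d22 (-0.33), Cyp2d10 (-0.30) and Cyp2d26 (-0.17) were lower. The calls for Cyp2d26, Cyp2d10 and Cyp2d13 were lost in 3, 2 and 1 of the 10 fits that left out 1 mouse. Cyp2f2 changed by -0.25 (adjusted p = 0.0283), a call lost in 4 of the 10 fits that left out 1 mouse.

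**Figure D5:**
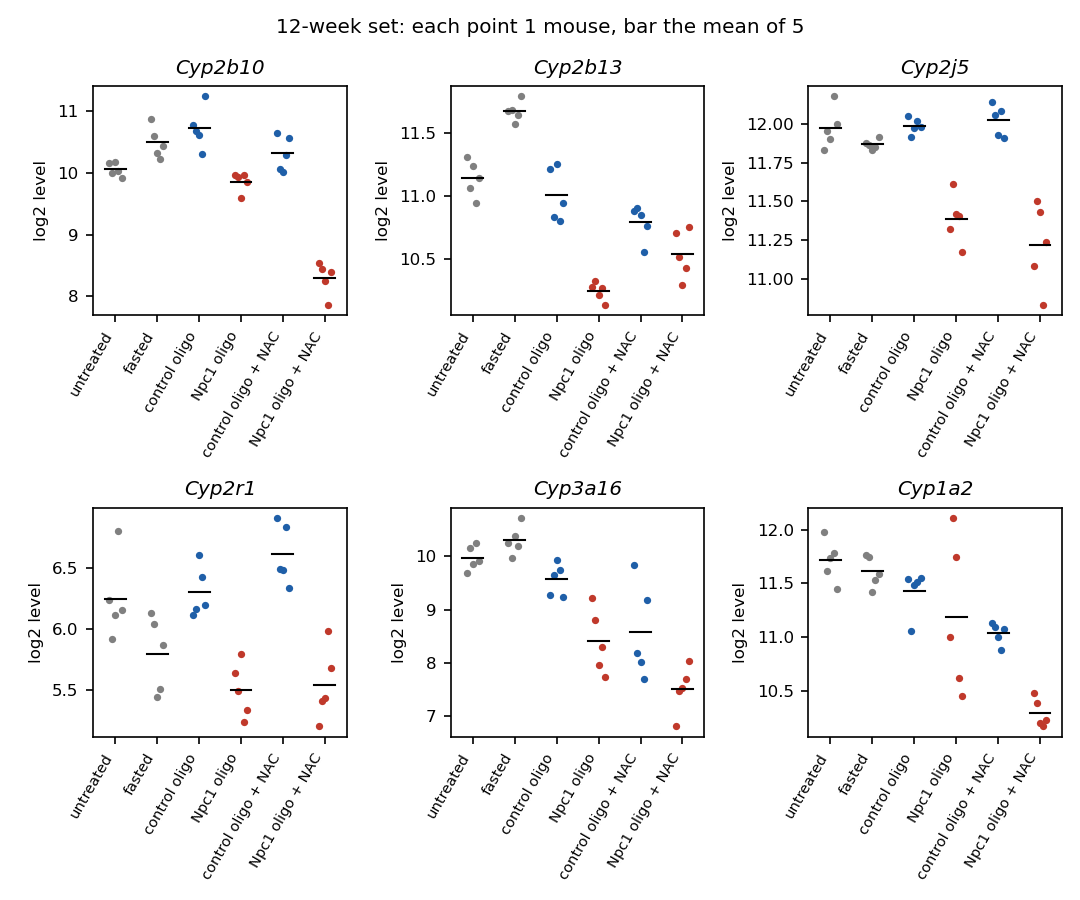
Log2 level of Cyp2b10, Cyp2b13, Cyp2j5, Cyp2r1, Cyp3a16 and Cyp1a2 in the 6 groups of the 12-week set; points are mice and bars mark the mean of 5. Under the Npc1 oligo with NAC the 5 mice lie at 7.87 to 8.53 for Cyp2b10, below all mice of the other 5 groups.

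With NAC in both oligo groups, the Npc1 oligo lowered 10 members and raised 2, where 14.7% of all genes were lower and 11% higher. Of the 10, 9 were among the 20 lower on average in the mutants (90% of the 10 and 45% of the 20, against 53.4% and 28% over all genes), and the other was Cyp1a2. The comparisons with and without NAC use separate mice, and 8 members were lower in both (57.1% of 14 and 80% of 10, against 59.8% and 32.1% over all genes). The lower calls without and with NAC made up 58.3% and 41.7% of the 24 members, and 7.88% and 14.7% of all genes. Cyp2b10 differed most, at 8.53, 8.44, 8.24, 7.87 and 8.40 against 10.65, 10.07, 10.01, 10.29 and 10.57, a change of -2.02 (SE 0.14, adjusted p = 2.26e-11). The oligo effect with NAC minus that without was -1.15 (SE 0.20, adjusted p = 0.00135). Cyp1a2 was lower at 10.48, 10.39, 10.21, 10.18 and 10.23 against 11.13, 11.10, 11.01, 10.88 and 11.08, a change of -0.74 (SE 0.19, adjusted p = 0.00349). Without NAC it had spread widely under the Npc1 oligo, at 11.00, 12.11, 11.74, 10.63 and 10.45, and the interaction for it did not pass (adjusted p = 0.284). Cyp3a16 (-1.07, adjusted p = 0.00615), Cyp2r1 (-1.07, adjusted p = 6.6e-06) and Cyp2j5 (-0.81, adjusted p = 7.19e-08) were lower as without NAC, at 6.82, 7.48, 7.53, 7.71 and 8.04, 5.20, 5.41, 5.43, 5.98 and 5.67 and 11.08, 11.50, 11.43, 10.83 and 11.24 in the 5 mice given both. Cyp2u1, a fatty acid hydroxylase, was lower with NAC (-0.44, adjusted p = 0.00262) and the interaction passed (-0.55, adjusted p = 0.0356). Cyp2d9 (0.33, adjusted p = 0.0238) and Cyp3a25 (0.19, adjusted p = 0.0395) were higher. The calls for Cyp3a25, Cyp2b13 (-0.25, adjusted p = 0.0438) and Cyp2d40 (-0.30, adjusted p = 0.0432) were lost in 6, 7 and 6 of the 10 fits that left out 1 mouse.

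NAC itself moved few members. Beside the control oligo it lowered 4 of 24, where 2.41% of all genes were lower, and raised Cyp2u1 (0.41, adjusted p = 0.0174), where 6.09% rose. Cyp2f2 stood at 11.42, 11.30, 11.04, 11.27 and 11.31 with NAC against 11.78, 11.81, 11.66, 12.03 and 12.04 without, a change of -0.60 (SE 0.08, adjusted p = 5.01e-05). The others were Cyp3a16 (-0.98, adjusted p = 0.0331), Cyp3a25 (-0.25, adjusted p = 0.0216) and Cyp2d22 (-0.25, adjusted p = 0.0067), of which Cyp3a16 was lost in 6 of the 10 fits that left out 1 mouse. Beside the Npc1 oligo NAC lowered Cyp2b10 (-1.56, adjusted p = 6.6e-08), Cyp1a2 (-0.89, adjusted p = 0.00285) and Cyp2f2 (-0.42, adjusted p = 0.00171) and raised Cyp2b13 (0.30, adjusted p = 0.047), where 4.27% of all genes were lower and 2.88% higher. The call for Cyp2b13 was lost in 8 of the 10 such fits. The oligo effect differed with NAC for 4 members, where 4.83% of all genes did. They were Cyp2b10 and Cyp2u1, given above, Cyp2b13 (0.51, adjusted p = 0.0189) and Cyp2d22 (0.28, adjusted p = 0.0465). The calls for Cyp2u1 and Cyp2d22 were lost in 8 and 14 of the 20 fits that left out 1 mouse. Npc1 itself was lower with NAC beside the control oligo, with a change of -1.03 (SE 0.15, adjusted p = 6.05e-05), and its part in these results was not tested.

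Fasting overnight raised 2 of 24 members, where 0.21% of all genes rose. Cyp2b13 stood at 11.67, 11.68, 11.57, 11.64 and 11.79 in fasted against 11.31, 11.06, 11.24, 10.95 and 11.14 in untreated mice, a change of 0.53 (SE 0.09, adjusted p = 0.00417). Cyp3a25, an adult Cyp3a form, changed by 0.30 (SE 0.07, adjusted p = 0.0318), at 12.71, 12.67, 12.67, 12.72 and 12.76 against 12.51, 12.45, 12.45, 12.25 and 12.40, and was lost in 9 of the 10 fits that left out 1 mouse. Under the control oligo 5 of 24 members (20.8%) differed from untreated mice, where 26.3% of all genes did. They were higher for Cyp2b10 (0.67, adjusted p = 0.00104) and Cyp2d9 (0.35, adjusted p = 0.019) and lower for Cyp2d13 (-0.61, adjusted p = 0.000203), Cyp2u1 (-0.53, adjusted p = 0.00073) and Cyp2f2 (-0.33, adjusted p = 0.00479). This comparison shares its mice with the oligo and the fasting contrasts.

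Germline loss at 11 weeks and the oligo at 12 weeks were set against each other in 1 fit of all arrays. The mutant's change was further down than the oligo's for 7 of 25 members, where 16% of all genes were. They were Cyp2j5 (-1.66, adjusted p = 2.98e-15), Cyp2d40 (-1.66, adjusted p = 9.57e-12), Cyp2d13 (-1.62, adjusted p = 5.89e-12), Cyp2b13 (-1.15, adjusted p = 0.0046), Cyp2b9 (-1.14, adjusted p = 8.27e-07), Cyp2f2 (-1.03, adjusted p = 4.43e-06) and Cyp2d10 (-0.40, adjusted p = 0.00966). The one for Cyp2b13 was -0.65 with an adjusted p of 0.0608 without mutant 4, and that for Cyp2d10 was -0.21 (adjusted p = 0.143) under quantile normalization. With median centring 11 members differed. Members lower in both comparisons numbered 12, or 85.7% of the 14 in each, against 23% and 63.3% of the lower calls over all genes. The lower calls themselves made up 58.3% of the 24 members tested in both sets in each comparison. Over all genes tested in both sets they made up 21.6% for the mutants and 7.86% for the oligo. Duration, route and mouse source differ between the sets along with the way Npc1 was lost and cannot be told apart.

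Other genes of P450 function were followed as lists. Of the electron donors and P450 partners, the oxidoreductase gene Por was not analysed here. Pgrmc1, a haem-binding partner of P450s, was lower in mutants at all 6 ages (-0.33, -0.41, -0.24, -0.41, -0.22 and -0.52). At 11 weeks 3 of the 4 tested genes of this list were lower, where 20.5% of all genes were. Beside Pgrmc1 they were Cyb5b, an outer mitochondrial cytochrome b5 (-0.81, adjusted p = 1.03e-05), and the cytochrome b5 reductase Cyb5r3 (-0.29, adjusted p = 0.0185). Cyb5a, the cytochrome b5 of the endoplasmic reticulum, changed by -0.14, adjusted p = 0.15. Under the Npc1 oligo Cyb5a (-0.22, adjusted p = 0.0174), Cyb5b (-0.50, adjusted p = 1.92e-05) and Pgrmc1 (-0.28, adjusted p = 0.00055) were lower, where 7.88% of all genes were. Under the control oligo 3 of the 4 tested genes of this list were lower than in untreated mice, where 2531 of 11900 genes were. Of 9 haem genes, 6 were lower and 2 higher at 11 weeks, with a median of -0.39. Over all genes 20.5% were lower and 2378 of 12638 higher. The synthesis enzymes Uros (-0.74), Alad (-0.66) and Cpox (-0.64) were lower, while Hmox1, which breaks haem down, and Blvrb, which reduces biliverdin, were higher (1.69 and 0.66). Alas1, the rate-limiting enzyme of haem synthesis, was lower at 5 weeks (-1.47, adjusted p = 0.00101). Red cell precursors also make haem, and of 4 erythroid markers 2 were lower at 11 weeks, with a median change of -0.85 and a mean level of 5.60 to 6.40 in mutants against 6.83 to 7.12 in littermates. Their part in the haem gene changes was not tested.

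Known regulators of P450 genes were followed in the same way. Of 8 tested xenobiotic receptors and partners, 3 were lower at 11 weeks, where 20.5% of all genes were. They were Ppara (-0.89), Rxra (-0.34) and the glucocorticoid receptor gene Nr3c1 (-0.31). Nr1i3, the receptor that drives Cyp2b10, was lower at 1 week (-0.75, adjusted p = 0.0238) and was called at no other age. Cyp2b10 was called lower at 3 and 7 weeks. Under the Npc1 oligo Nr1i3 was lower (-0.39, adjusted p = 0.0145) and with NAC higher (0.48, adjusted p = 0.00263), while Cyp2b10 was lower in both. The part of Nr1i3 in the Cyp2b10 changes was not tested. Of 10 hepatocyte transcription factors, 5 were lower at 11 weeks, with Cebpb (-0.93), Cebpa (-0.84), Foxa1 (-0.66) and Hnf4a (-0.29) among them. At 1, 3, 5, 7 and 9 weeks, 0, 1, 3, 0 and 4 of these factors were lower. Of the receptors and partners, 1, 0, 1, 0 and 1 were lower. The P450 members called lower at these ages numbered 8, 11, 5, 14 and 8. Over all genes 2.78%, 6.84%, 2.88%, 11% and 15.5% were. At 7 weeks 1 of each list was higher, as was 1 receptor or partner at 3 and 9 weeks. The part of these regulators in the P450 changes was not tested. The clock output factors Dbp and Tef were lower with NAC beside the control oligo (-1.32 and -0.61) and higher under the Npc1 oligo with NAC (0.78 and 0.39). In the growth hormone pathway, 3 of 9 genes were lower and 1 higher at 11 weeks, with the receptor Ghr at -1.54, adjusted p = 2.16e-15 and its target Igf1 at -0.85, adjusted p = 1.77e-08. Ghr was lower under the Npc1 oligo as well (-0.51, adjusted p = 4.86e-06). Of the dioxin receptor targets outside the P450s, 2 were tested, Nqo1 and Tiparp. Both were higher at 11 weeks, Nqo1 by 1.58 (adjusted p = 2.11e-10), while Cyp1a2 did not pass. Tiparp was higher at 3 ages, by 0.32 to 0.41. Under the Npc1 oligo with NAC 1 of the 2 was lower, with a median of -0.73, where 14.7% of all genes were lower. The part of the dioxin receptor in these changes was not tested. Beside these counts, 20.5% of all genes were lower and 2378 of 12638 were higher at 11 weeks, with a median change of -0.017.

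Markers of other liver cells changed over the same comparisons. The 8 macrophage markers were called higher in number 2, 6, 5, 7, 8 and 8 at the 6 ages, with median changes of 0.06, 1.41, 2.35, 3.29, 3.63 and 3.62. Over all 12638 genes tested, 368, 1125, 1224, 1806, 2225 and 2378 were called higher at these ages. Under the Npc1 oligo 6 of 8 were higher (mean level 8.35 to 9.32 against 7.49 to 7.72), and with NAC 5 of 8 (7.70 to 9.33 against 7.41 to 7.86). Under the control oligo 5 of 8 were higher than in untreated mice (6.91 to 7.25), where 601 of 11900 genes were. Of 6 stellate and fibroblast markers, 3 to 5 were higher at 3 to 11 weeks. Of 6 sinusoidal endothelial markers, 4 were lower and 1 (Lyve1) was higher at 11 weeks, where 20.5% of all genes were lower. Of the 5 hepatocyte markers, 3 were lower at 3 weeks, 1 at 11 weeks and 4 under the Npc1 oligo with NAC, where their median was -0.31. Over all genes 6.84%, 20.5% and 14.7% were lower in these comparisons. The part of these cells in the P450 changes was not tested.

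Spread between mice of one group limits what can be read for some members. The pooled SD within groups was 0.87 for Cyp3a16, 0.58 for Cyp2b10 and 0.36 for Cyp2b13, against 0.088 for Cyp2d26, 0.093 for Cyp2e1 and a median of 0.19 over the tested members.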

How the data were processed

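The authors deposited 1 table of log2 expression values for 78 arrays and 35556 probe sets. Per the submitters' processing notes, the tools were RMA, which background-corrects, quantile-normalizes and summarises probes, and Partek 6.5, with their order and role not given. Array medians lay between 5.35 and 5.65, and no 2 arrays were identical. Array results carry no read depth, so precision rests on the number of mice. Each mouse is labelled a biological replicate, so p-values measure the spread between mice. GEO's platform annotation, which can be old, gave 1 symbol to 21789 probe sets, several to 1621 and was not matched for 12146. For a gene with several probe sets the one with the highest mean was used. Groups came from the labels. Limma 3.58.1 in R 4.3.3 was fitted with 1 mean per group to the age series (48 arrays), to the 12-week set (30 arrays), and, for the mutant against the oligo, to all 78, over genes above the median of all values on at least 4 arrays. Two-sided moderated p-values were adjusted over all genes tested (Benjamini-Hochberg), for 24 comparisons. The fit was tested on simulated data. Every member may be named, and values per mouse are given for the 4 highest and 4 lowest called members of a comparison and for fixed members, short of repeats. The members and gene lists were chosen with earlier results of these data known. Alternatives were the filter, scaling, probe choice, prior, replicate block, fits of the compared groups alone and leaving out mice. Leaving out the arrays with pancreas or muscle signal or distant sample numbers was also run, for 3 comparisons (littermates from 3 to 5 weeks and over all ages, and variation of the genotype difference between ages) as a choice made after seeing the data.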

Additional observations from a re-analysis of the deposited data

Results flagged for a closer look

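Among 162 groups of 9 members, 10 had a mouse apart from the others by Dixon's test, where chance gives about 1 in 20 groups. They were Cyp1a2 at 11.44 in Npc1+/+ mouse 1 of 5 weeks and at 11.05 in control oligo mouse 2, Cyp2b9 at 10.63 in Npc1+/+ mouse 1 of 1 week, Cyp2b10 at 10.46 and Cyp2f2 at 11.75 in Npc1+/+ mouse 1 of 5 weeks, Cyp2e1 at 13.0 in mutant 2 of 3 weeks, Cyp2f2 at 11.03 in Npc1+/+ mouse 4 of 3 weeks, Cyp3a11 at 11.91 in Npc1+/+ mouse 3 of 11 weeks and at 10.93 in untreated mouse 4, and Cyp3a16 at 10.16 in Npc1+/+ mouse 1 of 1 week. Npc1+/+ mouse 1 of 5 weeks accounted for 3 of the 10.

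The genotype difference varied between ages for 10 members, by limma's F test, with adjusted p of 0.0168 for Cyp2b13, 0.00751 for Cyp2b9, 0.00437 for Cyp2d10, 1.08e-08 for Cyp2d13, 1.42e-07 for Cyp2d40, 0.0348 for Cyp2e1, 0.00305 for Cyp2f2, 8.59e-13 for Cyp2j5, 0.000162 for Cyp2j6 and 0.0204 for Cyp3a16. Changes with opposite signs among those that passed at single ages occurred for Cyp2j6.

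The effect of the Npc1 oligo differed with NAC, in limma's interaction test, for Cyp2b10 (adjusted p = 0.00135), Cyp2b13 (0.0189), Cyp2d22 (0.0465) and Cyp2u1 (0.0356). The change in mutants of 11 weeks differed from that under the oligo for Cyp2b13 (adjusted p = 0.0046), Cyp2b9 (8.27e-07), Cyp2d10 (0.00966), Cyp2d13 (5.89e-12), Cyp2d40 (9.57e-12), Cyp2f2 (4.43e-06) and Cyp2j5 (2.98e-15).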

How the results depend on the processing

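Of 202 called changes of single members, 147 stayed called under every alternative run, 55 were lost under at least 1, and 0 changed sign. Counts of called members moved by over 1.5 times in these cases. Without a filter on low values the interaction gave 2 and fasting 1. With median centring the difference between mutant and oligo gave 11. With only the compared groups fitted, NAC beside the Npc1 oligo gave 2 and fasting 5. Leaving out 1 mouse gave 6 to 11 members for the genotype at 1 week, 9 to 13 at 3, 4 to 6 at 5, 11 to 14 at 7, 6 to 10 at 9 and 11 to 13 at 11 weeks. It gave 20 to 21 for the average over ages and 9 to 14 for the variation between ages. In Npc1+/+ mice it gave 3 to 5 from 3 to 5 weeks and 0 to 1 from 5 to 11 weeks. It gave 10 to 15 for the Npc1 oligo, 9 to 13 with NAC, 3 to 7 and 3 to 5 for NAC beside the control and the Npc1 oligo, 2 to 5 for the interaction, 1 to 2 for fasting, 4 to 6 for the control oligo and 7 to 9 for mutant against oligo. The cause of these moves was not tested.

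Over all pairs of groups, mice with the same replicate number had a median correlation of their deviations of 0.0049 in the age series (-0.334 to 0.367). In the 12-week set it was -0.022 (-0.328 to 0.256). Most of these 264 pairs in the age series joined mice of different ages. The check therefore cannot tell whether the number pairs littermates of one age. With the number as a replicate block, the counts at the 6 ages were 8, 11, 6, 14, 9 and 13, the average over ages gave 21, the Npc1 oligo 14 and the interaction 3. Single mice decided the size of some changes by over 1.5 times: Cyp2a12 at 1 week was -0.21 without mutant 3, and Cyp2u1 from 1 to 11 weeks in Npc1+/+ mice was 0.24 without mouse 2 of 11 weeks. Array signal near background limits Cyp3a16 in mutants from 5 weeks and in all mice of 11 weeks, Cyp2r1 under the oligo, Cyp2d34 and the 14 untested members.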

Other observations

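Cyp3a16 took different levels in the untreated Npc1+/+ mice of the 2 sets. It stood at 9.68, 10.16, 9.85, 10.24 and 9.91 in the 5 untreated BALB/cJ mice of 12 weeks and at 5.48, 5.21, 5.27 and 5.01 in the 4 Npc1+/+ mice of the mutant line at 11 weeks. The lowest of the former, 9.68, was above the highest of the latter, 5.48. Its near neighbour Cyp3a44 stood at 9.78, 9.97, 9.84, 10.00 and 9.80 and 9.97, 9.93, 10.51 and 9.80. Line, source, age and array set differ together here and cannot be told apart, and no test was made.

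Mutant 4 of 11 weeks differed from the other mutants of its age in several members. Cyp2b10 was 11.44 there and at most 8.78 in the other three, and Cyp3a13 was 7.71, 7.78, 7.97 and 8.59 in mutants 1 to 4. Cyp2a22 was 10.85, 10.40, 10.62 and 9.29 in the same order, and Cyp2r1 was 5.98, 5.74, 5.86 and 5.20.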
